A study of Arabidopsis thaliana with 12 samples.

Results

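Transcript levels late in the light period were set against levels at midday in Arabidopsis thaliana seedlings of a line named CCA1-ox, in which the clock gene CIRCADIAN CLOCK ASSOCIATED 1 (CCA1) is overexpressed. The 3 arrays whose titles give 6pm, zeitgeber time (ZT) 12, were compared with the 3 whose titles give 12pm, ZT6, so 6 of the 12 arrays of the series carry the comparison. Zeitgeber time counts hours from lights on, and with 16 h of light and 8 h of dark both times lay within the light. Both groups were the aerial part of 10-day-old CCA1-ox seedlings of the Columbia ecotype, grown on agar with full-strength Murashige and Skoog salts and 1% sucrose. All 12 arrays, including the 3 of ZT0 and the 3 of ZT18, carry the CCA1 overexpression, and wild-type seedlings, which the design also names, were not analysed here. The promoter that drives CCA1 and the number of independent lines are not given in the sources used here. Nothing in the labels says that the 3 arrays of a time came from separately grown plants, so a p-value here weighs a difference against a spread among arrays that may be partly or wholly technical.

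CCA1 is a MYB transcription factor of the plant circadian clock that normally accumulates around dawn and represses genes whose transcripts peak later in the day, many of which carry a promoter motif known as the evening element. Constitutive CCA1 is known to weaken or abolish rhythms in constant light, while light and dark can still drive daily changes. In leaves the afternoon is a time of photosynthesis, of starch storage and of preparation for the use of starch at night.

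The chip held 22810 probe sets, of which 64 were controls and 14016 of the other 22746 were tested. A probe set was tested when its log2 value reached 4 on at least 3 of the 12 arrays. Array medians ran from 6.27 to 6.43. Defining genes of green tissue were high at both times: RCA, the chaperone that activates the carbon-fixing enzyme RuBisCO, averaged 14.29 at ZT12 and 14.20 at ZT6 on the log2 scale. Of the 3 root markers with a named probe set, PYK10, a beta-glucosidase, was high at 13.33 and 13.14 at ZT12 and ZT6, while EXPA7 and EXPA18, expansins of root hairs, did not pass the filter on low values. No probe set of the platform table was paired with CCA1 itself, so the level of the overexpressed gene was not analysed here. In samples of whole tissue, fewer cells of a type and less RNA per cell cannot be told apart.

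The arrays of the 2 times lay close together. Over the tested probe sets the SD of the difference between arrays was 0.325 to 0.482 between ZT12 and ZT6, 0.255 to 0.402 among ZT12 arrays and 0.222 to 0.337 among ZT6 arrays. ZT6 replicate 1 lay as near to ZT12 replicate 2 (0.325) as to the other ZT6 arrays (0.321 and 0.337), and ZT12 replicate 1 lay furthest from its own group (0.348 and 0.402). The characteristic for the harvest time differs from the title on 4 of these 6 arrays, and the time was taken from the title throughout. The 3′ minus 5′ signal of the chip's plant control probe sets, a measure of how far the RNA was degraded or copied short, was 4.21 ± 0.13 at ZT12 and 4.32 ± 0.10 at ZT6 (log2, SD, n = 3). The difference of -0.11 gave p = 0.3 in an exact permutation test (two-sided), where the smallest p that 3 against 3 arrays can give is 0.1.

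In the 6 h between midday and late day 297 of 14016 probe sets (2.12%) passed an adjusted p of 0.05, in limma with Benjamini-Hochberg adjustment over all probe sets tested. Of these, 151 (1.08%) rose and 146 (1.04%) fell. The changes were mostly small: 92 (0.656%) reached 2-fold, 59 of them higher and 33 lower at ZT12, and 13 reached 4-fold. The median change was 0.90 for the rises and -0.73 for the falls on the log2 scale, against a median of -0.03 over all probe sets tested. For 12604 probe sets (89.9%) the 95% interval of the difference lay within 2-fold in either direction, and 2744 had an unadjusted p under 0.05. All 297 had every ZT12 array on 1 side of every ZT6 array, as had 4599 (32.8%) of all probe sets tested.

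**Figure D1:**
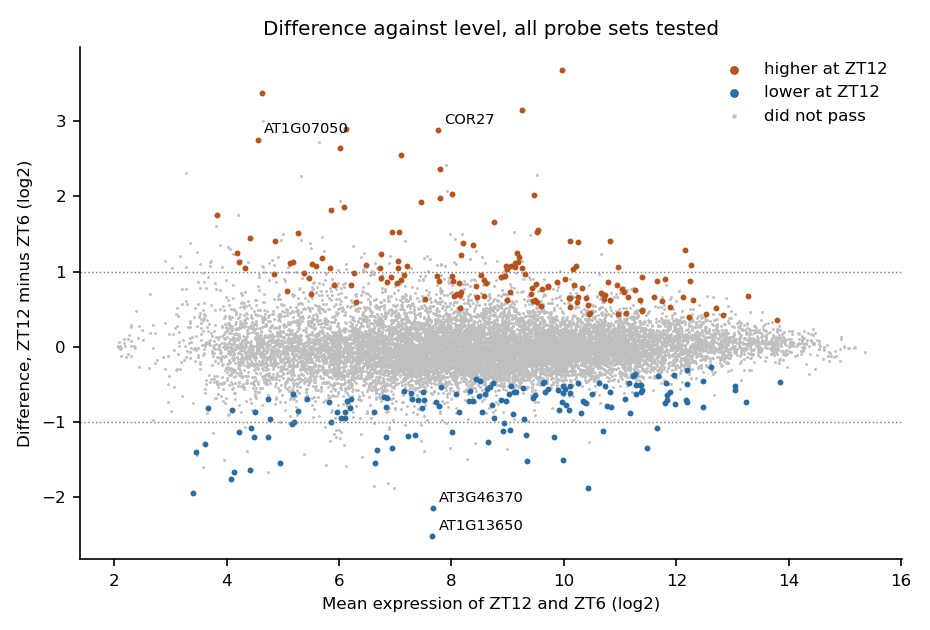
Difference between ZT12 and ZT6 (log2, ZT12 minus ZT6) of each of 14016 probe sets against its mean level over the 6 arrays (log2), with the 151 higher at ZT12 in orange, the 146 lower in blue and the others in grey. Dotted lines mark a 2-fold difference, and most probe sets lie between them.

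The number of calls fell without any 1 of the 6 arrays. Leaving an array out also makes its group smaller, and lost precision was not told apart from the weight of that array. Leaving out 1 of the 6 arrays left 27 to 165 calls: 102, 107 and 125 without ZT12 replicates 1, 2 and 3, and 165, 27 and 41 without ZT6 replicates 1, 2 and 3. Leaving out an array of the other times, which only help to estimate the spread, gave 229 to 466 calls, with 466 without ZT18 replicate 1 and 451 without ZT0 replicate 3. The 15 largest rises and 15 largest falls were taken among called genes with no overlap of arrays, each gene read from its brightest probe set only. Of these 30 genes, 12 kept their call in every setting and without each single array, and these are described first.

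**Figure D2:**
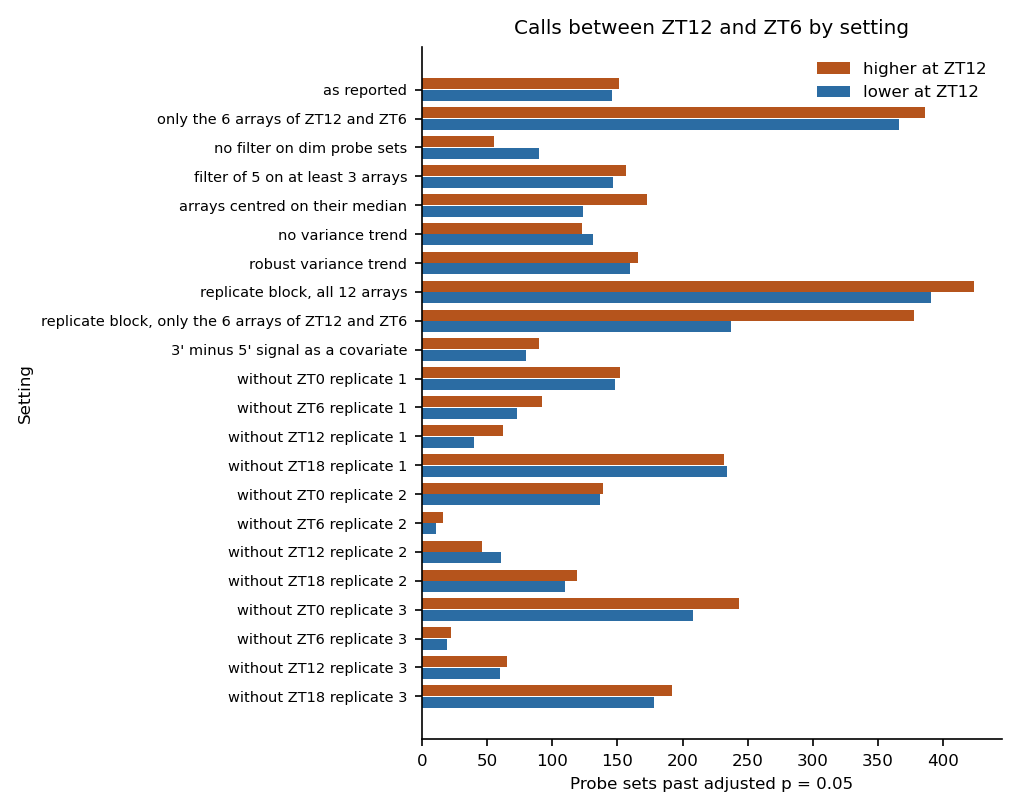
Number of probe sets higher (orange) and lower (blue) at ZT12 past an adjusted p of 0.05, for the reported fit at the top and for each other setting or array left out. The reported fit calls 151 and 146, and without ZT6 replicate 2 the fit calls 16 and 11.

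COR27 rose most among the named genes that passed. It is a cold-regulated gene under clock control whose product acts in the clock and in blue-light signalling. Its log2 level was 9.28, 9.06 and 9.27 on the ZT12 arrays, against 5.49, 6.49 and 6.98 on the ZT6 arrays. All ZT12 arrays lay above all ZT6 arrays, and the spread was far wider at ZT6. The difference was 2.88 (SE 0.28, limma adjusted p = 0.000335), a 7.37-fold rise. ZT12 was not its highest time: its means at ZT0, ZT6, ZT12 and ZT18 were 12.53, 6.32, 9.20 and 12.21, so midday was the low point of its day.

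The 5 other rises that kept their call are named by the tables only by locus, and no role is given for them. AT1G07050 stood at 6.35, 5.62 and 5.84 at ZT12, against 3.42, 3.27 and 2.85 at ZT6. It was under 4, the limit used here for a measurable level, on all ZT6 arrays, so the rise is given as at least 3.83-fold, the ZT12 mean over that limit (adjusted p = 0.00116 in limma). AT1G17665 stood at 5.22, 4.52 and 4.37 at ZT12 and likewise under 4 on every ZT6 array (2.87, 2.87 and 3.1), a rise of at least 1.63-fold (adjusted p = 0.0035 in limma). Both were below the limit on every array at midday and above it on every array 6 h later. The other 3 were well expressed at both times. AT3G25600 stood at 10.19, 10.16 and 10.50 at ZT12, against 9.10, 8.43 and 8.73 at ZT6, a rise of 1.53 (SE 0.20) or 2.89-fold. AT3G22240 stood at 11.29, 11.72 and 11.57 at ZT12, against 10.26, 10.24 and 9.85 at ZT6, a rise of 1.41 (SE 0.13) or 2.66-fold. AT1G32920 stood at 12.74, 12.68 and 12.99 at ZT12, against 11.63, 11.45 and 11.47 at ZT6, a rise of 1.29 (SE 0.13) or 2.44-fold. No array of one time reached the range of the other in these genes, and each group of 3 spanned under 1 log2 unit. Over the day these 6 genes differed in where ZT12 stood: AT1G07050, AT3G25600 and AT1G32920 had their highest mean at ZT12, COR27 at ZT0, and AT1G17665 and AT3G22240 at ZT18.

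The 6 falls that kept their call are also named only by locus. All of them had their highest mean of the 4 times at ZT6. AT1G13650 fell most: it stood at 6.49, 6.70 and 6.02 at ZT12, against 8.76, 8.93 and 9.07 at ZT6, a difference of -2.52 (SE 0.22, adjusted p = 0.000272 in limma), 5.72-fold. Its ZT0 and ZT18 means were 2.17 and 2.3, near the lowest value of the chip of 2.06, so its transcript was measurable only on the arrays of the light period. AT3G46370 stood at 6.10, 6.89 and 6.78 at ZT12, against 8.61, 8.65 and 8.96 at ZT6, a difference of -2.15 (SE 0.25) or 4.43-fold. AT5G35970 stood at 10.48, 11.02 and 10.91 at ZT12, against 12.10, 12.18 and 12.18 at ZT6, a difference of -1.35 (SE 0.18) or 2.55-fold. In both genes the ZT6 arrays agreed more closely than the ZT12 arrays did. AT5G42250 stood at 8.19, 8.55 and 8.34 at ZT12, against 9.37, 9.55 and 9.53 at ZT6, a difference of -1.12 (SE 0.15) or 2.18-fold. AT1G73700 and AT5G55010 were dim. AT1G73700 was under 4 on every ZT12 array (2.13, 2.93 and 2.21), against 4.21, 4.08 and 4.84 at ZT6, a fall of at least 1.3-fold. AT5G55010 was under 4 on every ZT12 array too (3.74, 3.01 and 3.14), against 4.56, 5.20 and 5.12 at ZT6, a fall of at least 1.94-fold. Both therefore passed from a low level at midday to one below the limit late in the day.

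**Figure D3:**
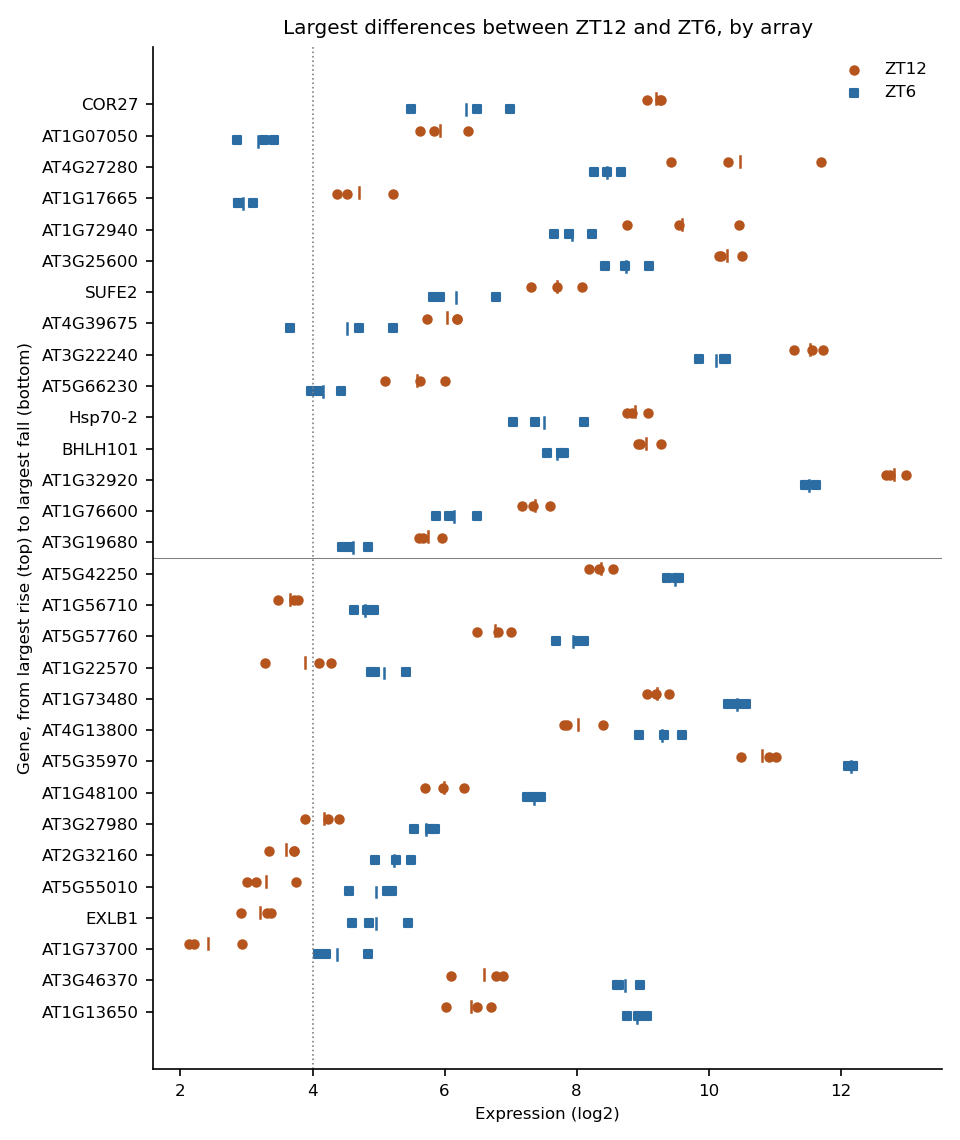
Log2 expression of the 15 largest rises (above the line) and the 15 largest falls (below it) among called genes, 1 point per array, ZT12 as orange circles above and ZT6 as blue squares below in each row, with short bars at the means. The dotted line marks the limit of 4. The 3 arrays of one time lie on 1 side of the 3 of the other in every row, which the choice of genes required.

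Among the other 18 of these 30 genes, calls were lost without at least 1 of the 6 arrays. SUFE2, which activates a cysteine desulfurase for iron-sulfur clusters in plastids, stood at 7.70, 8.09 and 7.31 at ZT12, against 6.78, 5.93 and 5.83 at ZT6, a rise of 1.52 (SE 0.29, adjusted p = 0.0204 in limma). That call was lost without ZT12 replicate 1 or 2 or ZT6 replicate 2 or 3, with an adjusted p of up to 0.111, and with no filter on dim probe sets. Hsp70-2, a cytosolic HSP70 chaperone, stood at 9.08, 8.76 and 8.83 at ZT12, against 8.12, 7.37 and 7.03 at ZT6, a rise of 1.39 (SE 0.22, adjusted p = 0.0111 in limma), lost without ZT6 replicate 2 or 3 (adjusted p up to 0.07). Both genes had their highest mean of the 4 times at ZT12. Of the rises named by locus, AT4G27280 and AT1G72940 varied most among the ZT12 arrays. AT4G27280 stood at 9.43, 10.30 and 11.70 at ZT12, against 8.67, 8.26 and 8.46 at ZT6. AT1G72940 stood at 8.76, 9.55 and 10.46 at ZT12, against 7.89, 7.65 and 8.23 at ZT6. Their rises of 2.01 and 1.67 lost their calls without ZT12 replicate 2 or 3 or any 1 ZT6 array (adjusted p up to 0.151 and 0.167 in limma), AT1G72940 also without ZT0 replicate 1 or ZT18 replicate 2. The remaining rises, of AT4G39675, AT5G66230, AT1G76600, AT3G19680 and BHLH101, were 1.13 to 1.51, and each lost its call without at least 4 of the 6 arrays in turn. AT4G39675 and AT5G66230 lost it also without ZT0 replicate 1 or 2 or ZT18 replicate 2. Among the falls, AT1G56710, AT5G57760 and AT3G27980 lost their calls only without ZT6 replicate 2 (adjusted p 0.0727, 0.0558 and 0.0558 in limma), and AT1G48100 without ZT6 replicate 2 or 3 (up to 0.07). The remaining falls were -1.20 to -1.26 in AT1G22570, AT1G73480 and AT4G13800. AT2G32160 and EXLB1 were under 4 on all ZT12 arrays and fell by at least 2.35-fold and 1.95-fold. Each of these genes lost its call without at least 5 of the 6 arrays in turn, AT1G22570 also without ZT18 replicate 2. Of all 30 genes, 13 lost their call with no filter on dim probe sets, 7 with the 3′ minus 5′ signal as a covariate, 4 with only the 6 arrays of these times and 2 without a variance trend.

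The clock itself could be followed only in part. Of 37 genes listed for the core clock and its outputs, 5 had a named probe set, and 1 of these rose (COR27) and none fell, beside 1.08% and 1.04% of all probe sets tested. GI (GIGANTEA), a clock component that also controls flowering by day length, stood at 8.29, 8.43 and 8.22 at ZT12, against 8.56, 8.65 and 8.66 at ZT6. The ZT12 arrays all lay below the ZT6 arrays, as in 18.6% of all probe sets tested, but the difference of -0.31 (SE 0.18) did not pass (adjusted p = 0.361 in limma; 95% interval -0.70 to 0.07). The 3 other members, known here by locus, had differences of 0.51 (AT1G69570), 0.33 (AT4G33980) and -0.09 (AT5G52660), none past the threshold. AT1G69570 had all ZT12 arrays (6.70, 6.62 and 6.81) above all ZT6 arrays (6.36, 5.99 and 6.27), as in 14.2% of all probe sets tested, while the other 2 overlapped. The median over the 5 genes was 0.33, against -0.03 over the 7572 genes tested.

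Of 22 genes listed for iron deficiency 4 were tested, and 1 rose, beside 1.08% of all probe sets tested. Plants short of iron turn on a small set of bHLH transcription factors, which act on genes of iron uptake and iron movement. BHLH101, one of these factors, stood at 8.96, 8.93 and 9.27 at ZT12, against 7.55, 7.80 and 7.76 at ZT6, a rise of 1.35 (SE 0.26, adjusted p = 0.0211 in limma). The groups were compact and well apart, but the call was lost without any 1 of the 6 arrays (adjusted p 0.06 to 0.0928) and with no filter on dim probe sets. AT1G47400 had a difference of 1.24 (SE 0.35) that did not pass (adjusted p = 0.085 in limma), with 11.66, 10.87 and 11.34 at ZT12 and 9.57, 10.41 and 10.16 at ZT6. PYE, a bHLH factor that restrains part of the iron response, had overlapping arrays and a difference of 0.16, and AT1G18910 one of -0.15. BHLH101 was also higher at ZT0 than at ZT18 (adjusted p = 0.00143 in limma), but it was under 4 on all ZT18 arrays (3.82, 3.84 and 3.04). Its fitted difference of 1.38 between these times is therefore no measured size. The same holds for the difference of -0.03 between its light and dark changes (SE 0.36, adjusted p = 0.971 in limma). Its means at ZT0, ZT6, ZT12 and ZT18 were 4.95, 7.70, 9.06 and 3.57.

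Starch is made by day and broken down at night. PWD, phosphoglucan water dikinase, which phosphorylates starch so that it can be degraded, was 1 of 2 tested genes of starch degradation and rose by 0.49 (SE 0.11, adjusted p = 0.0436 in limma), beside 1.08% of all probe sets higher. It stood at 11.66, 11.59 and 11.65 at ZT12, against 11.13, 11.16 and 11.12 at ZT6, so the groups were narrow and 0.49 apart. That call was lost without any 1 of the 6 arrays (adjusted p 0.0932 to 0.169), without ZT18 replicate 2, with no filter on dim probe sets (0.0843), without a variance trend (0.0646) and with the 3′ minus 5′ signal as a covariate (0.0795). Both tested genes of starch synthesis had all ZT12 arrays below all ZT6 arrays, as had 18.6% of all probe sets tested, and neither passed. APL3, a large subunit of ADP-glucose pyrophosphorylase, stood at 5.99, 6.18 and 6.07 at ZT12, against 7.11, 6.77 and 6.91 at ZT6 (-0.85, SE 0.29, adjusted p = 0.135 in limma). SBE2.2, a starch branching enzyme, had a difference of -0.47 (adjusted p = 0.159). AKINBETA1, a regulatory subunit of the energy-sensing kinase SnRK1, had one of -0.46 (adjusted p = 0.0601), also with no overlap.

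The photosynthesis genes of the nucleus that could be tested differed little, and most listed genes could not be. Tested were 3 of 24 listed genes of light harvesting, 3 of 14 of the Calvin cycle and 7 of 24 of chlorophyll synthesis. None of these passed, beside 2.12% of all probe sets tested. LHCB4.2, a minor antenna protein of photosystem II, stood at 14.67, 14.63 and 14.59 at ZT12, against 14.80, 14.83 and 14.83 at ZT6, a difference of -0.19 (SE 0.06, adjusted p = 0.126 in limma). Its ZT12 arrays all lay below its ZT6 arrays, as in 18.6% of all probe sets tested, while LHCB4.1 of the same antenna had a difference of -0.05. RCA (0.09) and PRK, which makes the acceptor of carbon dioxide in the Calvin cycle (0.06), had overlapping arrays. Of the enzymes of porphyrin and chlorophyll synthesis, HEME2 had a difference of 0.51 (adjusted p = 0.186), CHLM one of -0.10 and HEMB1 one of -0.12. Of 16 tested genes for assembly of chloroplast complexes and editing of organelle transcripts, 13 lay below 0 with a median of -0.15, beside 4172 of all 7572 genes below 0, and none passed. The 2 most abundant of them, LPA1 and PIFI, had differences of -0.06 and -0.02.

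Genes encoded in the plastid were mostly above 0 and none passed, beside 2.12% of all probe sets tested. Among 40 photosynthesis genes of the plastid 31 lay above 0 (median 0.15), and among 17 genes for plastid ribosomal proteins and the plastid RNA polymerase 14 did (median 0.22), against 3398 of all 7572 genes tested (44.9%, median -0.03). Of the 57 genes, 32 had their highest value of the 6 arrays on ZT12 replicate 1. Without that array, but with ZT6 replicate 1 kept, the medians were 0.10 and 0.12, and 28 and 15 genes lay above 0. Some plastid genes stood highest on replicate 1 at each time (rps16) and others lowest (psbF). Leaving out replicate 1 at ZT12 alone therefore unbalances the comparison, and how far the medians rest on that array was not tested. ndhJ, a subunit of the plastid NDH complex, shows the spread, with 10.12, 8.82 and 8.26 at ZT12 against 8.90, 7.17 and 7.31 at ZT6, a difference of 1.28 (SE 0.83, adjusted p = 0.424 in limma). The most abundant members lay nearer 0: atpB and atpE, subunits of the plastid ATP synthase, had differences of 0.23 and 0.13, and the ribosomal protein genes rpl16 and rpl36 had 0.22 each. psbD, which encodes a reaction-centre protein of photosystem II, lay lowest at -0.74, with 8.55, 9.33 and 9.47 at ZT12 and 9.17, 9.94 and 10.45 at ZT6. The labelling used oligo(dT) priming, and most plastid transcripts carry no stable poly(A) tail; the part of priming in these values was not tested.

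Among cell wall genes 1 of 5 tested XTH genes rose and 1 of 12 tested expansin genes fell, beside 1.08% and 1.04% of all probe sets tested. XTH16, a xyloglucan endotransglucosylase/hydrolase that cuts and rejoins wall polymers, stood at 7.21, 7.11 and 7.28 at ZT12, against 6.45, 6.29 and 6.14 at ZT6, a rise of 0.91 (SE 0.15, adjusted p = 0.013 in limma). That call was lost without ZT6 replicate 2 or 3 (adjusted p up to 0.0752). XTH19 had a difference of 0.83 with overlapping arrays and XTH18 one of -0.55, and neither passed. EXLB1, an expansin-like gene, was under 4 on all ZT12 arrays (3.37, 2.92 and 3.31), against 4.86, 4.60 and 5.44 at ZT6, a fall of at least 1.95-fold (adjusted p = 0.0314 in limma). Its call was lost without any 1 of the 6 arrays (adjusted p 0.0662 to 0.15) and with no filter on dim probe sets. The other 11 expansin genes did not pass.

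In the stress and defence lists most genes did not pass, as over all probe sets tested, of which 2.12% passed. STZ, a zinc-finger repressor of the cold and dehydration response, stood at 4.81, 6.19 and 7.44 at ZT12, against 3.63, 2.63 and 3.17 at ZT6, at least 4.43-fold higher at ZT12 but not past the threshold (adjusted p = 0.0997 in limma). The ZT12 arrays were far apart and all ZT6 arrays lay under 4. PDF1.2, a plant defensin and marker of jasmonate and ethylene signalling, stood at 3.74, 5.81 and 3.74 at ZT12, against 2.09, 2.12 and 2.15 at ZT6, and did not pass either (adjusted p = 0.0586). The 4 other tested genes of the cold list included COR47 (0.10) and COR15A (-0.10), both high and with overlapping arrays. WRKY22, a transcription factor of innate immunity, was the only 1 of 4 tested WRKY genes to pass, beside 1.08% of all probe sets higher: it stood at 5.70, 6.18 and 6.53 at ZT12, against 4.84, 4.96 and 5.38 at ZT6, a rise of 1.08 (SE 0.25, adjusted p = 0.0457). Its call was lost without ZT12 replicate 2 or 3, any 1 ZT6 array, ZT0 replicate 1 or ZT18 replicate 2 (adjusted p up to 0.17), and also with no filter on dim probe sets (0.122), without a variance trend (0.0514) and with the 3′ minus 5′ signal as a covariate (0.0795). WRKY53 had a difference of -0.00. None of the 4 tested heat shock genes and of the 4 of protein folding in the endoplasmic reticulum passed. The called chaperone gene Hsp70-2 is not on the heat shock list. On that list AT5G51440 stood at 6.65, 6.68 and 6.71 at ZT12, against 5.94, 5.55 and 5.24 at ZT6 (no overlap, adjusted p = 0.29), and AT5G48570 had a difference of 0.01. BZIP17, a membrane-bound factor of the endoplasmic reticulum stress response, had a difference of 0.63 (adjusted p = 0.105) with no overlap of arrays, as in 14.2% of all probe sets tested on that side, while BZIP60, another factor of this response, had 0.18 and CRT1b, a calreticulin, -0.21.

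Families of enzymes that act on small molecules gave 1 call among the UGT, cytochrome P450 and glutathione S-transferase genes. UGT73C1, a glycosyltransferase that acts on cytokinins, was the 1 of 25 tested UGT genes that passed, beside 1.08% of all probe sets higher, and rose by 1.04 (SE 0.18, adjusted p = 0.0143 in limma). It stood at 4.74, 5.15 and 4.66 at ZT12, against 4.01, 3.73 and 3.68 at ZT6, while its ZT0 and ZT18 means of 2.07 and 2.09 lay at the chip's lowest value. That call was lost without ZT12 replicate 2 or ZT6 replicate 2 or 3 (adjusted p up to 0.0842). The 24 other UGT genes had 12 differences on either side of 0. UGT78D2 and UGT78D1, which act on flavonoids, had differences of -0.05 and -0.11. None of 11 cytochrome P450 genes passed, and 2 of them, CYP71B26 and CYP71B35, had all ZT12 arrays below all ZT6 arrays, as had 18.6% of all probe sets tested. CYP71B6 had a difference of 0.19. None of 7 glutathione S-transferase genes, 10 autophagy genes or 7 bZIP genes passed, beside 2.12% of all probe sets tested. bZIP had a median of 0.33 with 5 of 7 genes above 0, against 44.9% of all genes tested. In these 5 all ZT12 arrays lay above all ZT6 arrays, as in 14.2% of all probe sets tested. The most abundant members of these 3 families lay within 0.5 of 0: GSTU20 (0.43) and GSTL3 (-0.03), the autophagy genes ATG8F (-0.12) and APG8H (-0.14), and BZIP61 (0.34) and BZIP53 (0.33).

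The remaining lists were thinly covered, and no tested member passed in any of them, beside 2.12% of all probe sets tested. Light signalling and shade had 4 tested genes (median 0.16), cell division 5 (-0.09), glucosinolate synthesis 3 (0.14), flavonoid synthesis 2 (-0.08), sucrose and trehalose 2 (0.08), dark and sugar starvation 2 (-0.12), and nitrogen and sulfur assimilation, touch and defence, and jasmonate and wounding 1 each. APS3, a called gene of sulfate assimilation described further on, is not on the nitrogen and sulfur list. HYH, a light-signalling bZIP factor, stood at 10.90, 10.92 and 10.74 at ZT12, against 10.97, 10.72 and 10.67 at ZT6, and the cell division kinases AUR1 and AUR2 had differences of 0.42 and 0.36 with no overlap of arrays, as in 14.2% of all probe sets tested. BCAT4, at the start of methionine-derived glucosinolate synthesis, had a difference of 0.44, AT3G21670 0.53, AT3G15450 0.21, AT2G31790 0.14, SWEET11, a sucrose exporter, 0.18, and ATSPS4F, a sucrose phosphate synthase, -0.01. Of the remaining families, AGAMOUS-like MADS box genes had 6 tested of 40 (median 0.07), ATP-citrate lyase 4 (-0.10), serine carboxypeptidase-like genes 4 (-0.02), calmodulin and calmodulin-like genes 3 (0.49) and Aux/IAA genes 2 (0.14). Among their most abundant members IAA29 had 0.25 and IAA18 0.02, AGL87 0.16 and AGL18 0.15, SCPL34 0.09 and SCPL45 -0.12, CML30 0.02, and ACLA-1 -0.05 and ACLB-1 -0.14, none past the threshold. CML38, a calmodulin-like gene, stood at 3.92, 4.94 and 6.36 at ZT12, against 3.45, 3.25 and 3.26 at ZT6, and did not pass (adjusted p = 0.29 in limma). No seed marker was tested. Centring each array on its median moved every list's median up by 0.03 and turned the sign of those of WRKY, serine carboxypeptidase-like genes and touch and defence, each near 0.

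**Figure D4:**
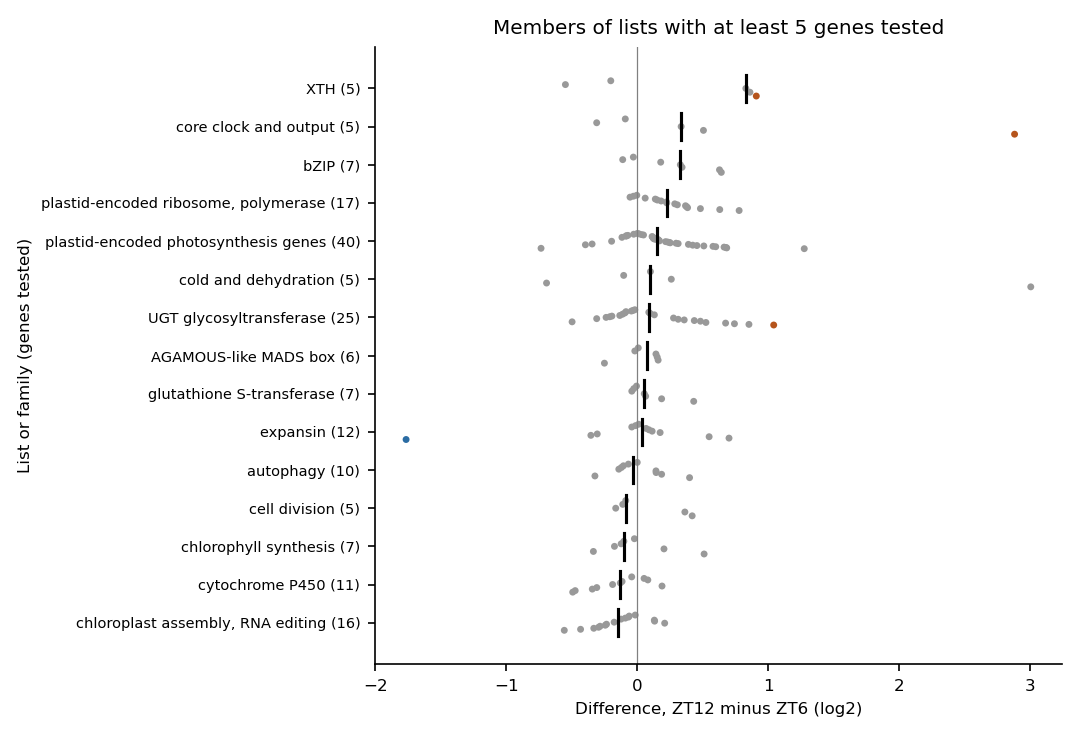
Difference between ZT12 and ZT6 (log2, ZT12 minus ZT6) of each tested gene in the lists and families with at least 5 genes tested, 1 point per gene and a black bar at the median, ordered by median. Orange points rose, blue points fell and grey points did not pass. Most points lie within 1 log2 unit of 0, and 4 of the genes shown passed: COR27, XTH16, UGT73C1 and EXLB1.

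A symbol was on record for 23 of the called genes, and the 14 not yet described were chosen for mention after their values were seen. Of the rises, several encode enzymes: APS3, an ATP sulfurylase at the entry of sulfate assimilation (0.63), MSRB9, a methionine sulfoxide reductase (1.09), ALDH2C4, an aldehyde dehydrogenase that makes ferulate and sinapate (0.76), and MAP1C, a methionine aminopeptidase (0.43). RALFL22, a peptide of the RALF family of extracellular signals, rose by 0.85, P1R3 by 1.12 and CDI by 0.67. MCCA, the biotin-carrying subunit of methylcrotonyl-CoA carboxylase in leucine breakdown, had a difference of -0.31, and its means at ZT0, ZT6, ZT12 and ZT18 were 14.46, 12.34, 12.03 and 14.09. AOR, a chloroplast reductase that detoxifies reactive carbonyls, had one of -0.60, DJ1D, a DJ-1 family protein, one of -0.69, and MRL7-L, needed for chloroplast development, one of -0.65. KELP, a putative transcriptional coactivator, LpxA, an acyltransferase of lipid A-like synthesis, and SIS had differences of -0.62, -0.63 and -0.69. Each of these 14 calls was lost without at least 3 of the 6 arrays in turn, 6 of them also without an array of ZT0 or ZT18, and those of MCCA, AOR and DJ1D also when each array was centred on its median. Of the 14, 10 also lost their call with the 3′ minus 5′ signal as a covariate, 9 with no filter on dim probe sets and 6 without a variance trend.

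Most calls cannot be named here. Of the 297 called probe sets 152 were not in the platform table and 5 were paired with several genes. The largest rise of all was in 256766_at, which stood at 12.02, 11.83 and 11.55 at ZT12, against 9.18, 7.53 and 7.64 at ZT6, a difference of 3.68 (SE 0.34, adjusted p = 0.000272 in limma). Its means at ZT0, ZT6, ZT12 and ZT18 were 7.90, 8.12, 11.80 and 11.46, so that it was low around dawn and midday and high in the evening and at night. The smallest adjusted p of all, 2.19e-06, belonged to a fall in 252415_at, which stood at 9.44, 9.68 and 9.37 at ZT12, against 11.43, 11.27 and 11.43 at ZT6. Its mean at ZT12 was the lowest of the 4 times. Of the named genes, AT1G21830, AT1G22330, AT2G30600 and AT5G62440 had 2 tested probe sets each of which 1 was called, and the other moved to the same side in each.

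The other 2 times place these changes in the day. Of the 151 probe sets higher at ZT12, 69 (45.7%) had their highest mean of the 4 times at ZT12, 42 (27.8%) at ZT18 and 40 (26.5%) at ZT0, and 97 had their lowest mean at ZT6. Of the 146 lower at ZT12, 84 (57.5%) had their highest mean at ZT6 and 73 had their lowest at ZT12. The call fixes part of this, since a higher probe set cannot peak at ZT6. At ZT18 the mean lay above that of ZT12 in 67 of the 151 higher probe sets and below it in 63 of the 146 lower ones. These counts use means and were not tested.

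**Figure D5:**
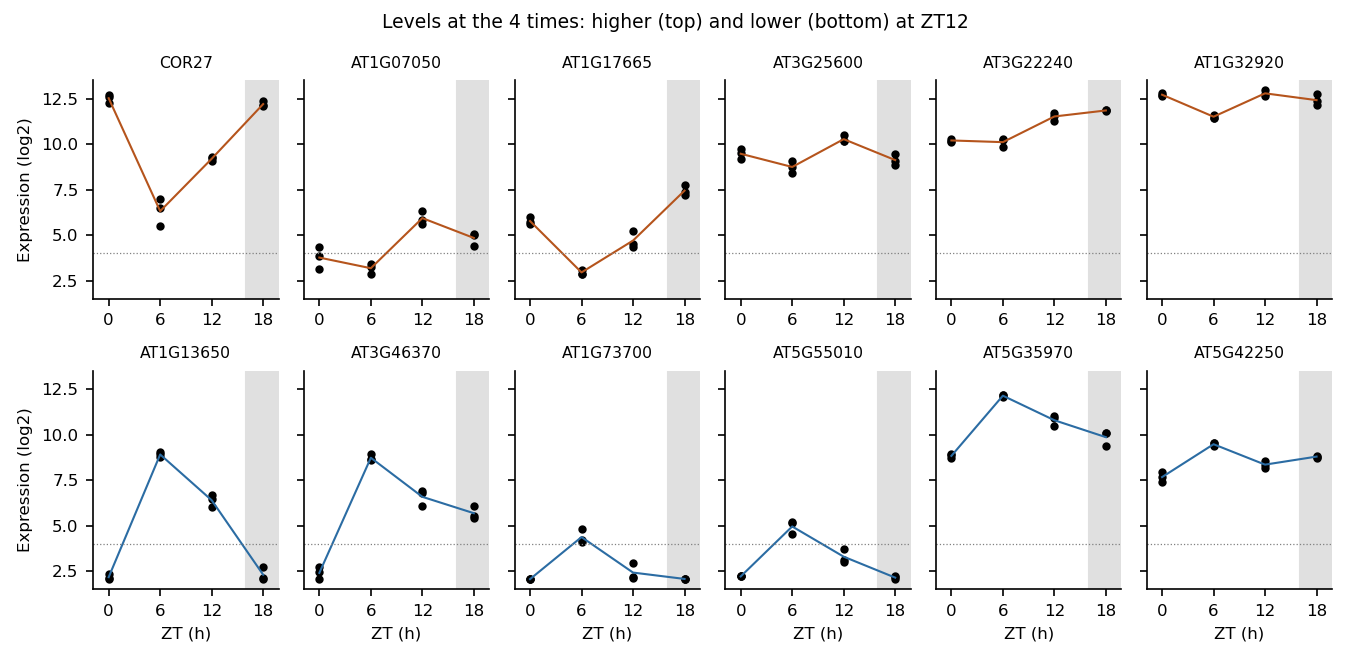
Log2 expression at ZT0, ZT6, ZT12 and ZT18 (hours from lights on) of the 6 rises (top row) and 6 falls (bottom row) that kept their call in every setting that tested them, 1 point per array and lines through the means. Grey marks the dark period from ZT16 and the dotted line the limit of 4. The falls are highest at ZT6, while the rises are highest at ZT12, ZT18 or ZT0.

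The change over these 6 h of light was also set against ZT0 minus ZT18, which shares no array with it. This stands for a change over the 6 h that ended at lights on if ZT0 is taken to follow ZT18. Plants of both times were 10 days old by the labels, and the order of harvest was not tested. The dark comparison called 5187 of 14016 probe sets (37%), 2600 higher (18.6%) and 2587 lower (18.5%) at ZT0. Of the 151 probe sets higher at ZT12, 29 (19.2%) were higher at ZT0 than at ZT18 and 41 (27.2%) lower. Of the 146 lower at ZT12, 28 (19.2%) were higher and 39 (26.7%) lower. The shares called higher at ZT0 were thus near the background of 18.6%, and those called lower above the 18.5%, in both sets. The 2 changes differed in 2503 probe sets (17.9%) by the contrast of differences in limma, 1326 with the light change above the dark change and 1177 below. Among the 297 calls 166 were in this set, which uses the same ZT12 and ZT6 arrays that chose them. The 3′ minus 5′ signal was 4.68 to 5.28 on the ZT18 arrays, above the 4.29 to 4.33 of the ZT0 arrays and all 6 arrays of ZT12 and ZT6, and with this signal as a covariate the 2 changes differed in 1385 probe sets, 1234 of them among the 2503.

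Of the first 5 rises, 4 changed differently in light and in dark, beside 17.9% of all probe sets tested. The contrast holds the same light change that chose these genes. AT1G72940 rose by 1.67 between ZT6 and ZT12 and was lower at ZT0 than at ZT18 by a log2 difference of -2.51, so that the changes differed by 4.18 (SE 0.53, adjusted p = 0.000354 in limma). AT1G07050 and AT1G17665 had the same pattern of opposite signs, but both were under 4 on every ZT6 array, so the size of the difference between their changes was not measured. COR27 rose in the light by 2.88 and had a dark difference of 0.32 that did not pass (adjusted p = 0.386), which made the changes differ by 2.56. For AT4G27280 they differed by 1.35, which did not pass (adjusted p = 0.152). Of the first 5 falls, AT1G13650, AT1G73700 and AT5G55010 changed in the light and had dark differences of -0.13, -0.01 and 0.07, with both dark means under 4, where a change could not be measured. AT3G46370 was lower at ZT12 than at ZT6, by -2.15, and lower at ZT0 than at ZT18, and the changes differed (adjusted p = 0.0402) by a size that was not measured, since its ZT0 mean of 2.41 lay under 4. That call was lost with no filter on dim probe sets, with the 3′ minus 5′ signal as a covariate, and without ZT12 replicate 2 or 3, any 1 ZT6 array, ZT0 replicate 1 or 3 or ZT18 replicate 2 (adjusted p up to 0.0995 without 1 of the 6 arrays). For EXLB1, which was under 4 at ZT12, the difference did not pass (adjusted p = 0.108).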

How the data were processed

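Values were the log2 expression values per probe set that the authors deposited, 1 column per array; the submitters' processing notes list R 3.1, affy 1.42.3 and GCRMA, and their settings are not given in the sources used here. Biotin-labelled cRNA was primed with oligo(dT), per the labels' protocols. Chip controls were left out, and probe sets reaching 4 on at least 3 of 12 arrays were tested. limma 3.58.1 (R 4.3.3) fitted a mean per time on all 12 arrays, with eBayes and a mean-variance trend, two-sided tests and Benjamini-Hochberg adjustment over 14016 probe sets (threshold 0.05). Each adjusted p of a gene comes from this fit. A fold is given as a bound ("at least") where the time with the lower level had no array at 4 or above, and is then taken against 4. The 3′ minus 5′ signal is the mean over the actin, GAPDH and ubiquitin controls.

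Genes came from the platform annotation, updated through Entrez identifiers to a RefSeq table, and a gene is its probe set with the highest mean over 12 arrays: 7610 tested probe sets had 1 gene, 299 several and 6107 none here. Only members with a symbol or a listed locus enter a list or family. The members, the 21 lists and the 17 families were chosen with earlier results of these data known. The text names the 15 largest rises and 15 largest falls among genes past the threshold with no overlap of arrays, the core clock genes, and called members of each list or, where none passed, its 2 most abundant; list members and unnamed probe sets beyond these were chosen after their values were seen. Lists have counts and medians and no test. Promoter motifs were not searched, since no promoter sequences were used here, and no coordinates are given because the files name no genome build. The number of arrays limits the precision: the median SE of a difference was 0.157. Alternatives were other filters, centring, variance models, the 6 arrays alone, a replicate block, the 3′ minus 5′ signal as a covariate and each array left out. The code was tested on simulated data.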

Additional observations from a re-analysis of the deposited data

Results flagged for a closer look

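The 10 genes set side by side were the first 5 rises and first 5 falls between ZT6 and ZT12. For 8 of them that change in the light differed from the change between ZT18 and ZT0 around the end of the dark. They are marked by limma's contrast of differences, which holds the same light change that chose the genes. Of all probe sets tested, 2503 of 14016 (17.9%) passed it. The light change exceeded the dark change by a log2 difference of 4.18 for AT1G72940, 3.84 for AT1G07050, 3.42 for AT1G17665, 2.56 for COR27 and 1.14 for AT3G46370. It lay below the dark change by a difference of -2.38 for AT1G13650, -1.94 for AT1G73700 and -1.73 for AT5G55010. These are fitted values: AT1G07050, AT1G17665, AT3G46370, AT1G13650, AT1G73700 and AT5G55010 had a mean under 4 at 1 or more of the 4 times, so that their values give no measured size, while COR27 and AT1G72940 lay above 4 at all 4 times. The difference for AT3G46370 (adjusted p = 0.0402) passed narrowly and was lost in 10 of 19 other settings, with an adjusted p of up to 0.329. The other 7 kept their calls in every setting that tested them. The ZT18 arrays had a higher 3′ minus 5′ signal than the others, and with it as a covariate those 7 stayed past the threshold.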

How the results depend on the processing

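The count of 297 calls between ZT12 and ZT6 became 752 with only the 6 arrays of these times, 145 with no filter on dim probe sets and 170 with the 3′ minus 5′ signal as a covariate. Of the 297, 268, 114 and 162 were among those calls. It was 304 with a filter of 5, 297 with arrays centred on their median (173 higher and 124 lower), 254 without a variance trend and 326 with a robust one. Leaving out 1 of the 12 arrays gave 27 to 466. The count of 2503 for the light change against the dark change became 1385 with the covariate, 1864 to 3182 in the other settings and 1699 to 2788 without 1 array. The titles tie same-numbered arrays only by their number. Between ZT12 and ZT6 the correlations of their deviations over the tested probe sets were -0.15, 0.03 and -0.07. Some plastid genes still followed the number. rps16 stood highest on replicate 1 at each time (11.99, 11.24, 12.30 and 12.04 at ZT0, ZT6, ZT12 and ZT18), and psbF stood lowest on it. What replicate number stands for was not tested. With replicate number as a block the calls were 815 on 12 arrays and 615 on 6 arrays, and 3182 for the contrast of changes. Over 115 gene values and 2386 alternative values, 2110 kept direction and side of the threshold, 258 lost the call, 18 gained one and 0 reversed. Signal limits the dimmest genes, since values under 4 carry only a bound. The cause was not tested for any of these shifts, and leaving an array out also makes its group smaller.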
